A study of Mus musculus with 24 samples.

Results

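The livers described here come from a 2 by 2 design in which mice received ethanol, di(2-ethylhexyl) phthalate (DEHP, a plasticiser), both or neither by gavage. All 24 RNA sequencing libraries of the series were used, 6 in each of 4 groups. The vehicle group (CT) was given 0.5% CMC, the ethanol group (EtOH) 1 g/kg body weight of ethanol, the DEHP group 2500 mg/kg of DEHP, and the combination group (DE) both agents at those doses. All mice were C57BL/6 males of 20 to 30 g, 12 in each group, and the labels do not say which mice entered the 6 libraries or whether RNA was pooled. They give no age, length of treatment, hour of collection or batch, and they name CMC for the vehicle group alone, so the carrier and the treatment cannot be told apart in a contrast with vehicle. One quantity was tested in each gene, the interaction, which is the log2 ethanol effect in the presence of DEHP (combination against DEHP) less that in its absence (ethanol against vehicle). It is 0 when the folds of the single agents multiply in the combination. It is positive when the combination lies above that product, called the additive expectation below since folds add on a log2 scale, and negative when it lies under it.

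DEHP is hydrolysed to a monoester that activates PPAR alpha, the nuclear receptor through which peroxisome proliferators switch on fatty acid oxidation genes in rodent hepatocytes. Ethanol is oxidised in the same cells by alcohol dehydrogenase, CYP2E1 and aldehyde dehydrogenase, and both agents bear on lipid handling. A factorial design asks whether the response to one depends on the presence of the other.

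Expected counts totalled 7324793 to 8016662 per library. Hepatocyte marker transcripts summed to medians of 66745 FPKM with vehicle, 63449 with ethanol, 44080 with DEHP and 43025 with both, as liver tissue should hold. There were 3 libraries that also held transcripts of other tissues. The 20 skeletal muscle markers summed to 8783 FPKM in vehicle library 1 and to 6466 in combination library 6, against at most 11.8 in any other library. The exocrine pancreas markers summed to 776 FPKM in DEHP library 6, against at most 38.3 elsewhere. Those 3 libraries were therefore left out in a repeat of the test, with 21 libraries. Replicates of a group differed by more than counting noise (chi-square per degree of freedom at least 6.31), and none was a copy of another. Whether they came from separate mice is not stated, so the p-values measure the spread between these libraries.

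Of 10697 genes with at least 1 FPKM in at least 6 libraries, 686 (6.41%) had an interaction at an adjusted p below 0.05 in edgeR's quasi-likelihood test. The combination lay above the additive expectation in 355 of them (3.32% of the tested genes) and below it in 331 (3.09%). At an unadjusted p below 0.05 in the same test, 1310 of the 10697 genes were higher and 1193 lower. Without the 3 libraries, 365 genes (3.41%) were called, 196 higher (1.83%) and 169 lower (1.58%). Of these, 346 had been called with all libraries and with the same sign, which is 50.4% of the larger set and 94.8% of the smaller. Among the 686 genes, 682 kept the sign of the interaction. The median interaction of all tested genes was 0.01, and the median size among called genes was 0.71, with 176 genes at 1 or more and 42 at 2 or more. The split between directions depended on scaling. It was 447 higher and 203 lower without normalisation factors, 439 and 120 on log2(TPM + 1), where the median of all genes stood at 0.11, and 275 and 392 after quantile normalisation. Limma on log2(FPKM + 1) gave 326 and 215, and with 0.1 in place of 1 it gave 333 and 211. In bulk tissue, less RNA per cell and fewer cells of a type cannot be told apart, and this holds for each level below.

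Called genes differed more from vehicle with ethanol alone than from DEHP with ethanol added to it. The median absolute log2 change with ethanol alone was 0.61 in the called genes, against 0.23 in all tested genes. With DEHP present, the same change was 0.16 in the called genes, against 0.11. Of the 366 called genes that ethanol alone shifted by 1.5-fold or more, 326 shifted by less than 1.5-fold when DEHP was present. Only 44 of the 686 moved 1.5-fold or more from DEHP to the combination. These changes share their libraries with the interaction that picked the genes, and they describe the shapes without testing them.

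**Figure D1:**
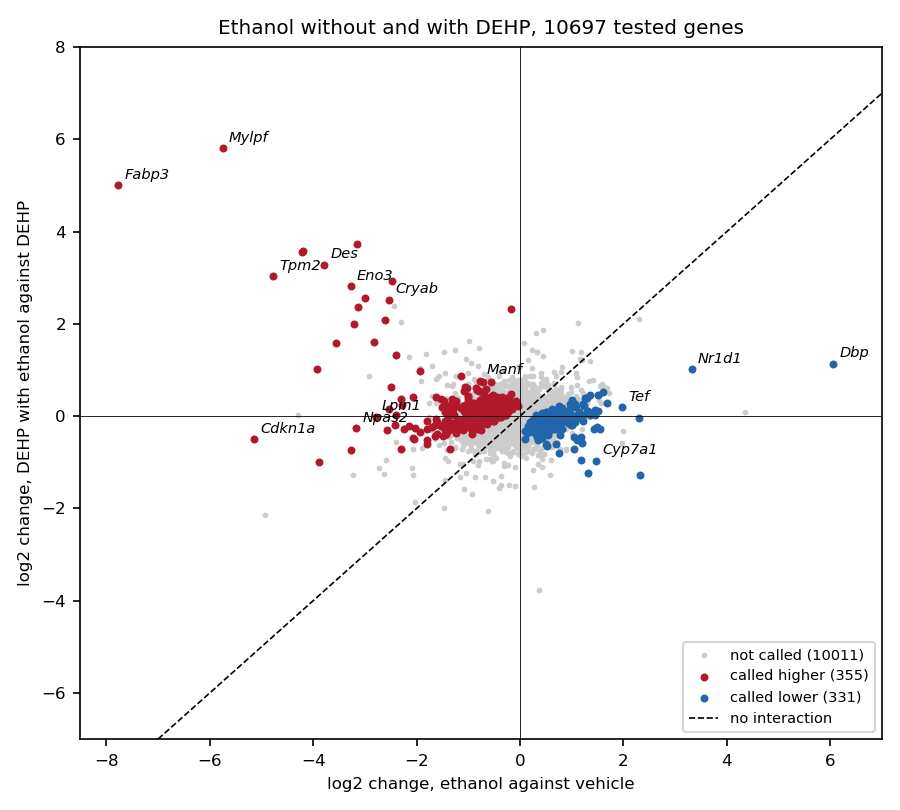
Each point is a tested gene, placed by its log2 change with ethanol against vehicle (x axis) and with both agents against DEHP (y axis). Red genes were called higher (355), blue genes lower (331), and grey genes were not called (10011). Genes on the dashed line have no interaction. Most coloured points lie near the horizontal axis, and the red points above 2 on the y axis include Mylpf, Tpm2, Eno3 and Des, which are high in the vehicle and the combination library with muscle transcripts.

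Sorted by the single agents, with 1.5-fold as the limit of a shift, the largest class held 184 genes that neither agent alone shifted and that lay below the expectation, and 116 such genes lay above it. Ethanol alone was lower, DEHP alone within the limit and the interaction positive in 143 genes. The mirror image, with ethanol alone higher and a negative interaction, held 90. Both agents alone were lower, with a positive interaction, in 85 genes, and both alone higher, with a negative one, in 43. In these last classes the median ethanol change with DEHP present was 0.03 and -0.07, so that the combination stayed near the level of DEHP alone. The remaining classes were small. Only DEHP was higher, with a negative interaction, in 11 genes, and only DEHP was lower, with a positive one, in 6. In 3 genes ethanol was lower and DEHP higher, with a positive interaction, and 2 had the reverse with a negative one. DEHP alone was shifted higher with a positive interaction in 2 genes and lower with a negative one in 1.

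Measured as the group whose mean stood farthest from the median of the 4, a measure added after the values had been seen, the ethanol group was the odd one in 406 called genes (59.2%), against 34.5% of all tested genes. The vehicle group was odd in 238 (34.7%, against 36.6%). The combination was odd in 30 (4.37%, against 17.7%) and DEHP in 12 (1.75%, against 11.2%). Among the genes called without the 3 libraries, the odd group was ethanol in 67.4%, with the group means still taken over all 24 libraries. All 6 ethanol libraries stood above or below all 18 others in 102 called genes, 44 above and 58 below, which is 14.9% of them, against 1.53% of all tested genes. The combination mean fell inside the range of the other 3 group means in 474 called genes (69.1%, against 52.2%) and was nearest to the DEHP mean in 403 (58.7%), a share close to that of all tested genes (56.3%). All these measures use the libraries of the interaction that picked the called genes. A share that differs from that of all tested genes is therefore partly built in, and the shares describe the shapes without testing them.

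The liver clock is a feedback loop in which CLOCK or NPAS2 pairs with BMAL1 (Arntl) to switch on its own repressors and a set of output factors, while REV-ERB proteins and RORs compete over Arntl and Npas2. The activator side lay above the additive expectation. Npas2 (gene at chr1:39193702-39363240, all coordinates in GRCm38.p6) showed the largest interaction of the loop's members. Vehicle livers held 2.8 to 4.08 FPKM of Npas2 (median 3.87), and ethanol livers 0.07 to 0.73 (median 0.475). Npas2 lay between 1.69 and 3.44 (median 2.61) with DEHP and between 1.05 and 2.64 (median 2.21) with both. Every ethanol library was below every other library, while the other groups ranged from 1.05 upward. Its interaction was 2.91 ± 0.41 (adjusted p = 0.000131). Arntl had an interaction of 1.55 ± 0.35 (adjusted p = 0.00917), Clock of 0.72 ± 0.18 (adjusted p = 0.0168), and Rora, which activates Arntl, of 0.96 ± 0.16 (adjusted p = 0.00111). Rora medians were 6.78, 3.16, 4.68 and 4.57 FPKM in the vehicle, ethanol, DEHP and combination livers, so the single agents were both under vehicle and the combination was no lower than DEHP by more than the spread of the libraries. Nfil3 encodes a repressor that competes with the output factors for D-boxes. Nfil3 spanned 34.1 to 46.3 FPKM (median 38.5) with vehicle and 12.2 to 25.2 (median 15.1) with ethanol. The ranges for Nfil3 were 29.6 to 45.4 (median 34.1) with DEHP and 29.4 to 36.8 (median 30.9) with both. All 6 ethanol livers were below all others. Its interaction was 1.06 ± 0.20 (adjusted p = 0.00231).

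The repressor side was mixed. Nr1d1, which encodes REV-ERB alpha, lay at chr11:98767932-98775377. For Nr1d1 the vehicle livers read 3.17 to 9.7 FPKM (median 5.49) and the ethanol livers 42.9 to 64.7 (median 59.4). DEHP livers read 3.4 to 24.2 (median 20.05) for Nr1d1, and livers given both 20.9 to 52.2 (median 30.7). The ethanol libraries did not all stand clear of the others, since the highest combination library overlapped the lowest ethanol library. The product of the single folds put the combination at 165 FPKM, and it averaged 34.6 ± 12.8 (SD, n = 6), an interaction of -2.30 ± 0.44 (adjusted p = 0.00279). The annotated interval of Nr1d1 overlaps that of Thra, and the counting is not stated to use strand, so reads in the overlap cannot be told apart. Thra had an interaction of -1.09, but its deposited length differed between libraries, with group medians of 3394 bases (vehicle), 6264 (ethanol), 4426 (DEHP) and 5028 (both). With each library's length as an offset its interaction was -0.43 (adjusted p = 0.103), and limma on FPKM or TPM did not call it (adjusted p 0.111 to 0.31). Cry2 was also lower, at -0.79 ± 0.16 (adjusted p = 0.00358), whereas Cry1 was higher, at 0.99 ± 0.22 (adjusted p = 0.0088). In all, 8 of 17 tested members of the loop were called, 6 higher (35.3%, against 3.32% of all tested genes) and 2 lower (11.8%, against 3.09%). The same 8 were called without the 3 libraries. Per1 (0.08) and Per2 (-0.32) were among the members not called.

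Dbp, an output factor, had the largest negative interaction of the clock genes. Dbp and Tef encode PAR bZIP factors that bind D-boxes in clock-controlled genes. Levels of Dbp ran from 0.36 to 1.67 FPKM with vehicle (median 0.66) and from 16.6 to 77.3 with ethanol (median 46.3). With DEHP Dbp ran from 0.65 to 1.94 (median 1.53), and with both from 1.21 to 6.88 (median 1.54). Each ethanol library exceeded each of the other 18, whose highest value was the 6.88 FPKM of combination library 3. The single folds predicted 79.5 FPKM in the combination and 2.44 ± 2.203 was measured, an interaction of -4.92 ± 0.70 (adjusted p = 0.000131) for this gene at chr7:45705100-45710203. Vehicle livers held 5.43 to 8.82 FPKM of Tef (median 7.81), and ethanol livers 18.5 to 34.4 (median 27.4). Tef lay between 6.39 and 10.02 (median 8.88) with DEHP and between 8.31 and 14.7 (median 8.97) with both. Again the ethanol libraries stood above all others. The interaction of Tef, at chr15:81802673-81826863, was -1.77 ± 0.24 (adjusted p = 7.17e-05). Wee1, a clock-controlled kinase that holds cells out of mitosis, was low throughout. Wee1 spanned 0.32 to 0.92 FPKM (median 0.65) with vehicle and 1.17 to 2.66 (median 1.54) with ethanol. The ranges for Wee1 were 0.96 to 1.82 (median 1.12) with DEHP and 0.87 to 1.29 (median 0.995) with both. Its interaction was -1.74 ± 0.34 (adjusted p = 0.00279). Lonrf3 went the other way, with medians of 1.62, 0.645, 1.18 and 1.03 FPKM in the order vehicle, ethanol, DEHP, both, and an interaction of 1.35 ± 0.23 (adjusted p = 0.00132). Of 16 tested output genes 7 were called, 3 higher (Lonrf3, Leo1 at 0.71 and Tsc22d3 at 1.60) and 4 lower (Dbp, Tef, Wee1 and Por at -0.68: call lost in 14 of the fits that omit 1 library, adjusted p 0.0503 to 0.0775, and not called without the 3). No hour of collection is given for any group, and hour and group cannot be told apart in these values.

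**Figure D2:**
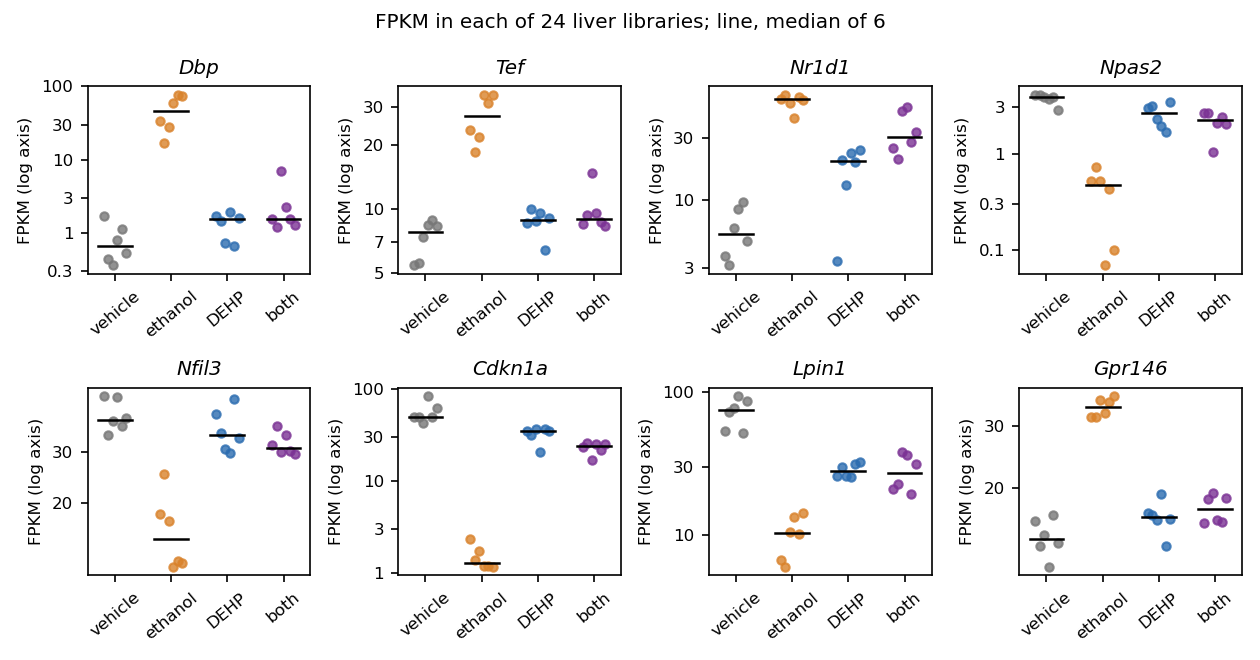
FPKM on a log axis in each of the 24 libraries for 8 genes named in the text. Points are libraries and lines are medians of 6. The ethanol libraries stand apart in Dbp, Tef, Npas2, Nfil3, Cdkn1a, Lpin1 and Gpr146, and in Nr1d1 they overlap the combination, which reached 52.2 FPKM.

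CLOCK and BMAL1 bind the E-box CACGTG, which reads the same on both strands. RefSeq (GRCm38.p6) gives a promoter window of 300 bases, from 250 before the start site to 50 after it, for 8604 tested genes, and 12.3% of these genes have that E-box in a window. The share was 13.3% among genes called higher and 13.1% among genes called lower, and 26.9% among the 26 genes of both clock lists with a window. Windows of Dbp and Nr1d1 do not hold these letters. Of the called genes with all ethanol libraries above the others, 36 had a window and 2 of these held the E-box (5.56%, against 12.3%). Those 2 are Tef and Gpr146. With all ethanol libraries below the others, it was 7 of 49 (14.3%). The Tef windows are shown because each of the gene's start sites has 1 copy, and the Gpr146 window because its copy lies across the start site of a gene with the same 4-group shape as Tef. They run 5′ to 3′ with the E-box in capitals. No binding was measured.
Tef, first start site, chr15:81802423-81802722 (plus strand): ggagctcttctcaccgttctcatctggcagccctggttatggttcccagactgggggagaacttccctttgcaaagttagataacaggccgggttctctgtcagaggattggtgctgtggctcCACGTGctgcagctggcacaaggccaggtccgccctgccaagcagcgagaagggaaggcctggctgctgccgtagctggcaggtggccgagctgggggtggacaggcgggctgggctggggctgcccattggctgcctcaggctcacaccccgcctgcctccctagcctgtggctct
Tef, second start site, chr15:81811164-81811463 (plus strand): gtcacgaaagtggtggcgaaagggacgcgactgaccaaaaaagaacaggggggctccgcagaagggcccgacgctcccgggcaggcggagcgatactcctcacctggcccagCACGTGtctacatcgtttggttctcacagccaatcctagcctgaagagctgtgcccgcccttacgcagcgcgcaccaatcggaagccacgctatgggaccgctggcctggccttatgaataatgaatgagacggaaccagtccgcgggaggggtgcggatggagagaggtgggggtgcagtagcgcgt
Gpr146, second start site, chr5:139380389-139380688 (plus strand): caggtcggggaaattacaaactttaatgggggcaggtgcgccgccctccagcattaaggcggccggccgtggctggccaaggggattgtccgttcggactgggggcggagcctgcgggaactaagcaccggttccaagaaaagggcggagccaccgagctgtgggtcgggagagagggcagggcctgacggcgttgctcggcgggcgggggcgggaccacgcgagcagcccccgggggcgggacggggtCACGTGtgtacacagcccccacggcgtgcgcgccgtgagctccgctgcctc

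Gpr146 encodes an orphan G protein-coupled receptor of the liver. For Gpr146 the vehicle livers read 12.01 to 16.8 FPKM (median 14.4) and the ethanol livers 31.7 to 36.4 (median 33.8). DEHP livers read 13.8 to 19.3 (median 16.6) for Gpr146, and livers given both 16.01 to 19.4 (median 17.5). Its ethanol libraries were all above the rest, with no overlap. The interaction was -1.20 ± 0.11 (adjusted p = 5.71e-07), with the smallest adjusted p-value of the negative interactions. Cebpa, the hepatocyte transcription factor C/EBP alpha, had the same outline. Levels of Cebpa ran from 133 to 176 FPKM with vehicle (median 152) and from 275 to 324 with ethanol (median 296). With DEHP Cebpa ran from 139 to 191 (median 164), and with both from 138 to 191 (median 156). Every ethanol library was above every other library. Its interaction was -1.0 ± 0.14 (adjusted p = 0.000131). Igfals, which encodes the acid-labile subunit that carries IGF-1 in blood, had medians of 47.7, 77.2, 39.9 and 40.4 FPKM and an interaction of -0.77 ± 0.16 (adjusted p = 0.00488).

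Cdkn1a had the smallest adjusted p-value of all tested genes. It encodes p21, an inhibitor of cyclin-dependent kinases and a target of p53 and of glucocorticoids, at chr17:29090979-29100722. Vehicle livers held 43.2 to 83.7 FPKM of Cdkn1a (median 49.98), and ethanol livers 1.18 to 2.34 (median 1.29). Cdkn1a lay between 20.7 and 36.8 (median 35.2) with DEHP and between 16.8 and 25.95 (median 24.3) with both. No ethanol library came within reach of the others: the highest was 2.34 FPKM and the lowest value elsewhere was 16.8. The single folds predicted 0.873 FPKM in the combination, where the mean was 23.1 ± 3.39 (SD, n = 6). The interaction was 4.65 ± 0.27 (adjusted p = 1.36e-11). Trp53inp1, a p53-induced protein that takes part in autophagy, was similar but less extreme. Trp53inp1 spanned 18.1 to 29.1 FPKM (median 24.4) with vehicle and 3.37 to 6.08 (median 4.58) with ethanol. The ranges for Trp53inp1 were 12.8 to 19.4 (median 15.2) with DEHP and 8.58 to 10.4 (median 9.18) with both. Again all ethanol libraries were the lowest. Its interaction was 1.58 ± 0.17 (adjusted p = 3.18e-06). Ddit4, an inhibitor of mTORC1 signalling, had medians of 14.2, 4.25, 10.1 and 6.695 FPKM and an interaction of 1.29 ± 0.30 (adjusted p = 0.0114). These were the 3 of 15 tested p53 targets that were called, all higher (20.0%, against 3.32% of all tested genes). None was called lower in edgeR, DESeq2 or limma on log2(FPKM + 1), and 1 had an unadjusted p below 0.05 in that direction.

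Of 17 tested glucocorticoid-responsive genes and metallothioneins, 9 were called higher (52.9%, against 3.32% of all genes). The list's median interaction was 1.29, or 1.03 without the 3 libraries, against 0.01 for all genes in both fits. None was called lower by edgeR, DESeq2 or limma, nor at an unadjusted p below 0.05. Without the 3 libraries 7 were called, all higher. The list shares Cdkn1a, Ddit4 and Tsc22d3 with the lists above. Zbtb16, a glucocorticoid-induced zinc finger repressor, showed the largest value after Cdkn1a. For Zbtb16 the vehicle livers read 9 to 16.99 FPKM (median 13.1) and the ethanol livers 0.47 to 4.43 (median 0.875). DEHP livers read 7.35 to 14.8 (median 12.5) for Zbtb16, and livers given both 5.47 to 9.95 (median 7.05). Ethanol library 4, at 4.43 FPKM, was the highest of its group and still under every library of the other groups. The interaction was 2.53 ± 0.44 (adjusted p = 0.00132). Sgk1, a kinase that acts on ion channels, was low with either agent alone. Levels of Sgk1 ran from 7.85 to 12.1 FPKM with vehicle (median 10.2) and from 3.06 to 6.03 with ethanol (median 4.97). With DEHP Sgk1 ran from 3.77 to 5.47 (median 4.28), and with both from 3.4 to 9.64 (median 5.87). The 3 treated groups overlapped, and all lay mostly below vehicle. Its interaction was 1.43 ± 0.24 (adjusted p = 0.00102). Tat, tyrosine aminotransferase, had medians of 1272, 604, 821 and 757 FPKM and an interaction of 0.92 ± 0.18 (adjusted p = 0.00411). Mt1 (-0.27), Mt2 (1.34) and Fkbp5 (0.05), a classical glucocorticoid target, were not called.

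Chaperones formed the most uniform group. Cytosolic chaperones of the heat shock response, which HSF1 drives through heat shock elements, keep proteins folded, and the ER chaperones of the unfolded protein response do so in the secretory pathway. Of 20 tested heat shock chaperones 11 were called higher (55.0%, against 3.32%). All 20 interactions were above 0, and their median was 0.65, or 0.46 without the 3 libraries. Without the 3 libraries 10 were called higher, among them 9 of the 11. Cryab, at 5.05, lost its call (adjusted p = 0.622 without them): it is also a muscle gene, at 139 FPKM in vehicle library 1 and 120 in combination library 6 and at most 4.83 FPKM in the other libraries of those groups. None was called lower by any of edgeR, DESeq2 and limma on log2(FPKM + 1), or at an unadjusted p below 0.05.

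Hsph1, an HSP110 that releases nucleotide from HSP70, lay at chr5:149616843-149636498. Vehicle livers held 12.5 to 30.01 FPKM of Hsph1 (median 16.4), and ethanol livers 7.62 to 12.2 (median 8.05). Hsph1 lay between 9.83 and 19.8 (median 13.4) with DEHP and between 14.2 and 23.04 (median 20.8) with both. Ethanol libraries were the lowest group, with library 4 the highest of them, and the combination was close to vehicle. Its interaction was 1.63 ± 0.28 (adjusted p = 0.00114). Stip1 encodes HOP, which links HSP70 to HSP90. Stip1 spanned 43.02 to 57.4 FPKM (median 44.9) with vehicle and 26.4 to 38.6 (median 31.9) with ethanol. The ranges for Stip1 were 38.9 to 52.8 (median 46.3) with DEHP and 43.97 to 68.4 (median 58.1) with both. All 6 ethanol livers were below all 18 others, and the combination median was the highest of the 4. Stip1 had an interaction of 0.84 ± 0.16 (adjusted p = 0.0026). Chordc1 encodes an HSP90 co-chaperone. For Chordc1 the vehicle livers read 14.02 to 22.8 FPKM (median 16.2) and the ethanol livers 8.6 to 12.3 (median 10.4). DEHP livers read 10.3 to 19.4 (median 15.7) for Chordc1, and livers given both 16.2 to 23.2 (median 18.9). The ethanol and combination libraries did not overlap. Its interaction was 1.02 ± 0.20 (adjusted p = 0.00279). Hspa1b, the inducible HSP70, had medians of 13.8, 5.48, 9.36 and 9.295 FPKM and an interaction of 1.29 ± 0.24 (adjusted p = 0.00205), while its near-identical copy Hspa1a was not called (0.59). Reads shared by that pair may have been split between them, so both values are uncertain. Hspa8 (0.93), Hsp90aa1 (1.30), Dnaja1 (0.92), Hspa4l (0.96), Hspb8 (0.57) and Hspa4 (0.37, not called without the 3 libraries: call lost without vehicle library 1 or combination library 5 or ethanol library 3, adjusted p 0.0514 to 0.0571) made up the rest of the called members.

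Of the 16 heat shock chaperone genes with a promoter window, 4 (25%) hold a heat shock element, searched on both strands as 3 alternating copies of GAA and its reverse complement with 2 bases of any kind between copies. Of all 8604 genes with a window 52 do (0.604%), 4 of 286 genes called higher and 0 of 260 called lower. The Chordc1 and Hsph1 windows are shown for their elements, which are in capitals. The first window has 3 overlapping elements that form 1 run across the start site, and the second has 1 element after the start site and the E-box CACGTG, also in capitals.
Chordc1, chr9:18292017-18292316 (plus strand): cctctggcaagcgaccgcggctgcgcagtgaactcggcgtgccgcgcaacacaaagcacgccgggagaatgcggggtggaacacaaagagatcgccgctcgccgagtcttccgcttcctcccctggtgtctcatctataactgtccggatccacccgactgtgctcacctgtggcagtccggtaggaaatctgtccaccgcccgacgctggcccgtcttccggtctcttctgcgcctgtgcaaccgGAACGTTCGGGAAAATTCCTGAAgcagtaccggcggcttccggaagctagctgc
Hsph1, chr5:149636287-149636586 (minus strand): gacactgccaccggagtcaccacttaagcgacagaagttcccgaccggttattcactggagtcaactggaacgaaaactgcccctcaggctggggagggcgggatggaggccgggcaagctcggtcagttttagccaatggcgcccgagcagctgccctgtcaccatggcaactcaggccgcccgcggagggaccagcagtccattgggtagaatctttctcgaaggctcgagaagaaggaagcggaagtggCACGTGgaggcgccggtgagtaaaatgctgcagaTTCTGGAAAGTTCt

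The other 8 motifs were searched in the same windows on both strands, and their shares are descriptions without a test. For genes called higher, genes called lower and all genes with a window, in that order, the D-box TTATGNAA was found in 2.1%, 1.15% and 2.77%, the cAMP response element TGACGTCA in 5.59%, 2.31% and 3.6%, the forkhead site TGTTTAC in 3.85%, 5% and 3.32%, and the NRF2 element TGACNNNGC in 18.5%, 11.2% and 17.2%. The ISRE core, TTTC repeated after 2 bases of any kind, was found in 2.45%, 2.31% and 3.72%. Few windows held the longer motifs. The RORE, AGGTCA preceded by AANT, was in 3 genes called higher, 0 called lower and 18 in all. A pair of AGGTCA with 1 base between was in 2, 0 and 5 genes, and the glucocorticoid element, GNACA and TGTNC with 3 bases between, in 2, 1 and 29. Among the 26 genes of the clock lists with a window, the NRF2 element was in 26.9%, the same share as the E-box, and the D-box in 11.5%. The forkhead site and the RORE were in 7.69% each, the cAMP response element in 3.85% and the others in 0. The forkhead site was in 4 of 36 called genes with all ethanol libraries above the others (11.1%), and in 3 of 49 with all below (6.12%). A RORE can lie inside an AGGTCA pair, and the other motifs can overlap as well.

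In the endoplasmic reticulum 9 of 19 tested chaperones and quality-control genes were called higher (47.4%, against 3.32%). All 19 interactions were above 0, and the median was 0.63, or 0.52 without the 3 libraries. Of the 9, 6 were called without the 3 libraries. Leaving out vehicle library 1, ethanol library 5, DEHP library 2 or combination library 3 alone brought the count to 5. None was called lower by edgeR, DESeq2 or limma, or at an unadjusted p below 0.05. Hspa5 encodes BiP, the main ER HSP70. Levels of Hspa5 ran from 287 to 624 FPKM with vehicle (median 404) and from 174 to 300.3 with ethanol (median 229). With DEHP Hspa5 ran from 273 to 553 (median 358), and with both from 359.8 to 726 (median 582). The vehicle and DEHP groups were wide, and the ethanol and combination libraries did not overlap. Its interaction was 1.40 ± 0.28 (adjusted p = 0.00411). Manf, a secreted ER stress protein, behaved alike in level order. Vehicle livers held 32.4 to 83.8 FPKM of Manf (median 52.9), and ethanol livers 23.6 to 45.4 (median 29.5). Manf lay between 33.01 and 84.9 (median 49.4) with DEHP and between 47.1 and 124 (median 93.4) with both. The combination had the highest median, and only its lowest library, at 47.1 FPKM, came near the ethanol maximum. For Manf the interaction was 1.53 ± 0.34 (adjusted p = 0.00883). Hyou1 is an ER HSP110. Hyou1 spanned 31.4 to 98.7 FPKM (median 56.9) with vehicle and 27.5 to 43.2 (median 34.1) with ethanol. The ranges for Hyou1 were 35.6 to 77.9 (median 45.7) with DEHP and 48.6 to 89.04 (median 76.1) with both. All 6 combination libraries lay above all 6 ethanol libraries. Hyou1 had an interaction of 1.34 ± 0.33 (adjusted p = 0.0168). Herpud1, which serves ER-associated degradation, differed in shape: its medians were 304, 142, 178 and 147 FPKM, so that each treated group lay under vehicle, and its interaction was 0.92 ± 0.23 (adjusted p = 0.0176). Syvn1 (0.99) and Dnajb9 (0.94, call lost without vehicle library 1 or combination library 3 or DEHP library 2 or ethanol library 5, adjusted p 0.0509 to 0.0518) were called too. Hsp90b1 (0.87; call lost in 12 of the fits that omit 1 library, adjusted p 0.0519 to 0.0825), Pdia4 (0.67; call lost in 16 of the fits that omit 1 library, adjusted p 0.0564 to 0.0916) and Edem1 (0.38; call lost in 20 of the fits that omit 1 library, adjusted p 0.0502 to 0.0869) were called with all libraries and not without the 3. Xbp1 (0.05) and Calr (0.22) were not.

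**Figure D3:**
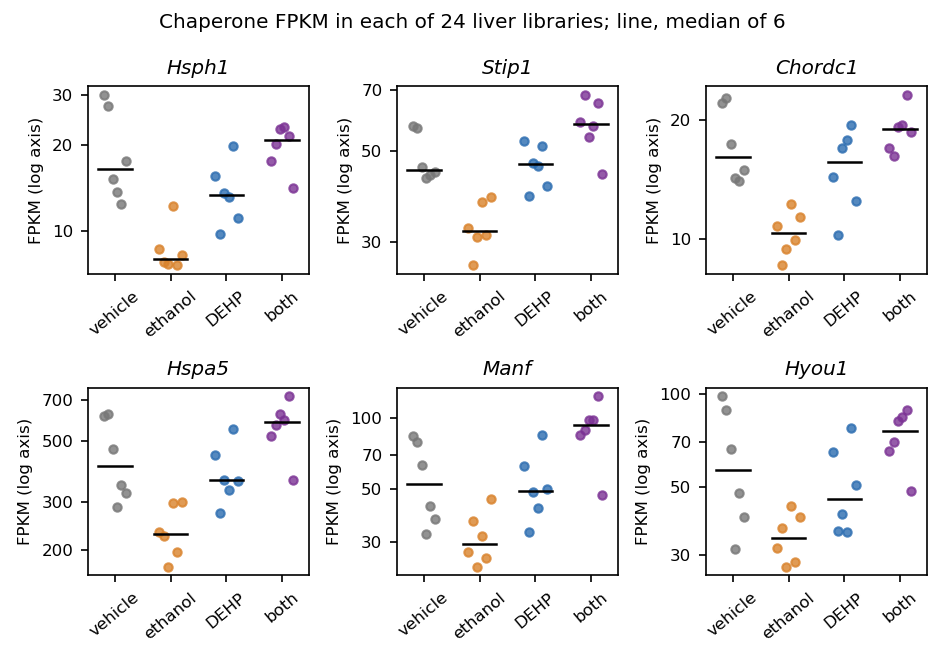
FPKM on a log axis in each of the 24 libraries for 3 cytosolic (top) and 3 ER chaperones (bottom). Points are libraries and lines are medians of 6. Ethanol has the lowest median and the combination the highest in all 6 panels, and the combination and ethanol libraries do not overlap.

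Genes of fasting metabolism were split by shape. G6pc, the catalytic subunit of glucose-6-phosphatase, was low under each treatment. For G6pc the vehicle livers read 145 to 241 FPKM (median 219) and the ethanol livers 40.1 to 89.1 (median 60.4). DEHP livers read 78.5 to 131 (median 97) for G6pc, and livers given both 58.9 to 111 (median 88.4). Vehicle livers were above all treated livers, and the combination was no further from vehicle than DEHP alone by more than the libraries' spread. Its interaction was 1.47 ± 0.27 (adjusted p = 0.0019). Igfbp1, a fasting-induced IGF-binding protein, had medians of 126, 29.1, 50.1 and 79.4 FPKM and an interaction of 2.52 ± 0.63 (adjusted p = 0.0169). Lpin1, a phosphatidate phosphatase and PPAR alpha coactivator at chr12:16535669-16653903, was called with the smallest adjusted p of the list. Levels of Lpin1 ran from 52.01 to 94.2 FPKM with vehicle (median 74.9) and from 5.93 to 14.1 with ethanol (median 10.2). With DEHP Lpin1 ran from 25.2 to 32.6 (median 27.8), and with both from 19.3 to 37.8 (median 26.95). Ethanol livers were the lowest and vehicle livers the highest, with DEHP and the combination between them and overlapping each other. The single folds predicted 3.94 FPKM in the combination, where the mean was 28.02 ± 8.07 (SD, n = 6), and the interaction was 2.78 ± 0.29 (adjusted p = 1.74e-06). Of 17 members, 5 were called higher (29.4%, against 3.32% of all tested genes) and 1 lower (5.88%, against 3.09%). Those higher were G6pc, Igfbp1, Tat, Lpin1 and Pdk4, and the lower one was Cebpa. Pdk4, at 2.49, was not called without the 3 libraries (adjusted p = 0.215; call lost in 17 of the fits that omit 1 library, adjusted p 0.0518 to 0.146), and vehicle library 1, which held muscle transcripts, read 34.7 FPKM and the other vehicle libraries at most 3.74. Pck1, which encodes the gluconeogenic enzyme PEPCK, was not called: its interaction was 0.49 ± 0.26 (adjusted p = 0.268), with a 95% interval of -0.06 to 1.03.

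Fatty acid and triglyceride synthesis had 7 of 28 members called higher (25%, against 3.32%). The 1 called lower was Dgat2 (-0.45; 3.57%, against 3.09%), and the median interaction was 0.37. Acly makes cytosolic acetyl-CoA for lipogenesis. Vehicle livers held 74.4 to 162 FPKM of Acly (median 85.2), and ethanol livers 43.4 to 67.2 (median 53.2). Acly lay between 120.4 and 227 (median 167) with DEHP and between 122 and 276 (median 195) with both. The ethanol group was the lowest, and the DEHP and combination groups overlapped. Its interaction was 1.19 ± 0.30 (adjusted p = 0.0188). Thrsp, a lipogenic co-regulator, had medians of 213, 133, 260.1 and 385 FPKM and an interaction of 1.69 ± 0.43 (adjusted p = 0.0189). Lpin2 (1.02), Insig2 (0.74), an ER anchor of SREBP processing, and Lpin1 followed the ethanol-low shape. Pnpla3, a lipid droplet acyl hydrolase, had the largest estimate, 4.70 ± 0.87 (adjusted p = 0.00179), at low levels: its medians were 0.37, 0.105, 0.325 and 1.66 FPKM. Acacb, at 0.81, was not called without the 3 libraries (adjusted p = 0.111; call lost in 14 of the fits that omit 1 library, adjusted p 0.0518 to 0.0719).

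In the list of lipid uptake and droplet genes 4 of 29 were called higher (13.8%, against 3.32%) and 1 lower (3.45%, against 3.09%), and the median was 0.01. Plin2 coats lipid droplets. Plin2 spanned 246 to 319.7 FPKM (median 288) with vehicle and 177 to 224 (median 191) with ethanol. The ranges for Plin2 were 254 to 362 (median 283) with DEHP and 334 to 438 (median 366) with both. Ethanol livers were all below, and 4 of the 6 combination livers were above the highest DEHP liver. Its interaction was 0.84 ± 0.14 (adjusted p = 0.000649). Plin5 was called as well (0.70; call lost without DEHP library 3 or 6 or ethanol library 3 or 6, adjusted p 0.0508 to 0.0548). Plin4 (2.67) was not called without the 3 libraries (adjusted p = 0.221; call lost without vehicle library 1 or combination library 6 or DEHP library 2, adjusted p 0.0504 to 0.12), and combination library 6, at 4.09 FPKM, stood apart from the other 5, at most 0.57. Angptl4, a secreted inhibitor of lipoprotein lipase that PPARs induce, had medians of 95.8, 21, 44.7 and 32.1 FPKM and an interaction of 1.55 ± 0.41 (adjusted p = 0.0229). Lipe, hormone-sensitive lipase, was the lower one. For Lipe the vehicle livers read 2.98 to 4.97 FPKM (median 4.15) and the ethanol livers 6.83 to 9.18 (median 8.62). DEHP livers read 6.27 to 9.57 (median 6.83) for Lipe, and livers given both 7.03 to 11.2 (median 8.44). All vehicle livers were below all treated livers, whose groups overlapped. Its interaction was -0.80 ± 0.18 (adjusted p = 0.00883). Ppard, the gene of the related receptor PPAR delta, lies at chr17:28232754-28301469 and had one of the largest interactions. Levels of Ppard ran from 11.9 to 18.6 FPKM with vehicle (median 13.6) and from 1.46 to 3.59 with ethanol (median 2.22). With DEHP Ppard ran from 6.51 to 11.4 (median 9.295), and with both from 3.55 to 12.4 (median 10.9). Combination library 3 was the only non-ethanol library that reached into the ethanol range. The interaction was 2.68 ± 0.31 (adjusted p = 1.08e-05).

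Cyp7a1, which catalyses the first and limiting step from cholesterol to bile acids, had another shape. Vehicle livers held 6.95 to 21.2 FPKM of Cyp7a1 (median 13.5), and ethanol livers 13.8 to 67.3 (median 31.7). Cyp7a1 lay between 13.5 and 43.9 (median 28.7) with DEHP and between 5.75 and 21.99 (median 13.8) with both. Each agent alone had a median above vehicle, and the combination was level with vehicle. The single folds predicted 72.97 FPKM, the combination mean was 13.9 ± 7.96 (SD, n = 6), and the interaction was -2.43 ± 0.50 (adjusted p = 0.00459). It and Nr1h4 (-0.54), the bile acid receptor FXR, were the 2 of 22 bile acid genes called (9.09% lower, against 3.09% of all tested genes). None was called higher by edgeR, DESeq2 or limma, or at an unadjusted p below 0.05. Arrdc3, an arrestin-domain protein that sorts receptors for degradation, matched Cyp7a1 in outline, with medians of 10.3, 23.6, 23.5 and 10.4 FPKM and an interaction of -2.13 ± 0.44 (adjusted p = 0.00457). Sphk2, a sphingosine kinase, stopped at a common level instead. Sphk2 spanned 10.6 to 14.5 FPKM (median 12.7) with vehicle and 22.5 to 30.9 (median 28.9) with ethanol. The ranges for Sphk2 were 19.7 to 28.03 (median 22.9) with DEHP and 21.3 to 28.3 (median 23.2) with both. All treated livers exceeded all vehicle livers, and the combination matched DEHP. Its interaction was -1.19 ± 0.15 (adjusted p = 4.95e-05). The Sphk2 gene, at chr7:45709463-45718002, overlaps that of Dbp, and reads of that overlap cannot be assigned without strand. Adora1, an adenosine receptor, had medians of 2.54, 6.11, 4.28 and 4.21 FPKM and an interaction of -1.33 ± 0.27 (adjusted p = 0.00459). Klhdc7a was ethanol-high, with medians of 2.7, 6.86, 3.49 and 3.995 FPKM and an interaction of -1.42 ± 0.20 (adjusted p = 0.000131).

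Among the remaining genes with large positive interactions, Irf2bp2, a transcriptional corepressor, was low in all treated groups, with medians of 22.3, 7.38, 10.02 and 11.2 FPKM and an interaction of 1.69 ± 0.27 (adjusted p = 0.000513). Tfrc, the transferrin receptor, had medians of 6.49, 1.98, 3.76 and 4.03 FPKM and an interaction of 1.91 ± 0.42 (adjusted p = 0.00751). Pitx3, a homeobox gene, had medians of 15.7, 2.32, 5.66 and 4.82 FPKM and an interaction of 2.29 ± 0.50 (adjusted p = 0.00697). Chrna4, a nicotinic receptor subunit, reached 3.72 ± 0.79 (adjusted p = 0.00601), with vehicle libraries between 1.07 and 11.5 FPKM and combination libraries between 5.16 and 34.7. Tra2a, a splicing factor, and St5 were ethanol-low with interactions of 1.45 ± 0.20 (adjusted p = 0.000131) and 1.07 ± 0.14 (adjusted p = 6.37e-05).

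The combination itself was the odd group in few called genes. Cyp1a2, a pericentral cytochrome P450, was one. For Cyp1a2 the vehicle livers read 383 to 484 FPKM (median 438) and the ethanol livers 399.9 to 688 (median 551). DEHP livers read 311 to 462 (median 396) for Cyp1a2, and livers given both 264 to 297 (median 289). All 6 combination livers were below all others. Its interaction was -0.92 ± 0.16 (adjusted p = 0.00136). Inhbe, the activin E subunit, also had its lowest median in the combination (12.1, 15.8, 11.7 and 7.22 FPKM), though its odd group by that measure was ethanol. The interaction of Inhbe was -1.30 ± 0.30 (adjusted p = 0.0101). Of 16 pericentral genes 3 were called lower (18.8%, against 3.09% of all tested genes): Cyp1a2, Rhbg and Rnf43. Rhbg (-0.96) lost its call in 16 of the fits that omit 1 library (adjusted p 0.0505 to 0.0938). Rnf43 (-0.90) lost its call in 17 of those fits (adjusted p 0.052 to 0.0846). Without the 3 libraries Cyp1a2 alone was called. DESeq2 called 7 pericentral genes lower and limma 1, and 8 were lower at an unadjusted p below 0.05, against 1193 of all 10697 tested genes. The list's median was -0.45, and 1 member lay above 0. None was called higher by edgeR, DESeq2 or limma, or at an unadjusted p below 0.05. No periportal gene was called among 14 in edgeR or limma, 1 was lower in DESeq2, and 3 were lower at an unadjusted p below 0.05.

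Of 28 peroxisomal and omega-oxidation genes, many of them PPAR alpha targets, 1 was called (3.57% lower, close to the 3.09% of all tested genes), Cyp4a12b (-0.97), a male-biased P450 with near-identical copies between which reads may be split, and the list's median was -0.06. Ehhadh encodes the bifunctional enzyme of peroxisomal beta oxidation. Levels of Ehhadh ran from 65.8 to 122 FPKM with vehicle (median 105) and from 87.6 to 110.2 with ethanol (median 102). With DEHP Ehhadh ran from 1302 to 3557 (median 2492), and with both from 1757 to 3472 (median 2682). The groups with DEHP lay above those without, whether or not ethanol was given. Its interaction was 0.03 ± 0.29 (adjusted p = 0.971), with a 95% interval of -0.58 to 0.63. Cyp4a14, a fatty acid omega hydroxylase, had medians of 119, 131, 3248 and 4130 FPKM and an interaction of 0.19 ± 0.52 (adjusted p = 0.856), interval -0.88 to 1.26. Mogat1, with medians of 0.13, 0.31, 17.5 and 19.5 FPKM, had an interval of -2.37 to 0.56, and Serpina12, a secreted serpin that was near 0 in both DEHP groups, of -2.68 to 0.96. Etfdh (0.43), a mitochondrial electron carrier, was the only called gene of 27 in mitochondrial oxidation and ketogenesis (3.7% higher, against 3.32%). It was not called without the 3 libraries. Its call was also lost without combination library 5 or DEHP library 1 or 2 or 6 or ethanol library 3 (adjusted p 0.0505 to 0.0666).

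Genes that handle ethanol were not called. None of 16 tested members of ethanol and aldehyde metabolism passed in edgeR or limma. DESeq2 called 2 lower, and 5 had an unadjusted p below 0.05, all lower, against 1193 lower of all 10697 tested genes. Cyp2e1, the ethanol-inducible P450, was the nearest. Vehicle livers held 2261 to 3787 FPKM of Cyp2e1 (median 2771), and ethanol livers 3174 to 4117 (median 3614). Cyp2e1 lay between 3559 and 4930 (median 3945) with DEHP and between 3323 and 4322 (median 3722) with both. Vehicle was the lowest group, and the treated groups overlapped. Its interaction was -0.50 ± 0.17 (adjusted p = 0.0649), interval -0.84 to -0.16. Adh1, alcohol dehydrogenase, had an interaction of 0.19 ± 0.18 (adjusted p = 0.543), interval -0.17 to 0.56, and Aldh2, mitochondrial aldehyde dehydrogenase, of -0.31 ± 0.13 (adjusted p = 0.14), interval -0.58 to -0.05. Cyp2b10, a target of the xenobiotic receptor CAR, had medians of 3.29, 1.02, 26.02 and 27.6 FPKM and an interaction of 1.30 ± 0.67 (adjusted p = 0.234), interval -0.06 to 2.68. Of 25 cholesterol synthesis genes 1 was called higher (4.0%, against 3.32%) and 1 lower (4.0%, against 3.09%), and the median was 0.00. The higher one was Pmvk (0.76). Its call was lost without vehicle library 2 or 3 or DEHP library 6 or ethanol library 5 (adjusted p 0.0503 to 0.0549). Tm7sf2 (-0.52) was the lower one, with its call lost without DEHP library 2 or 6 (adjusted p 0.0523 to 0.0591). Without the 3 libraries Tm7sf2 was not called (adjusted p = 0.125).

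**Figure D4:**
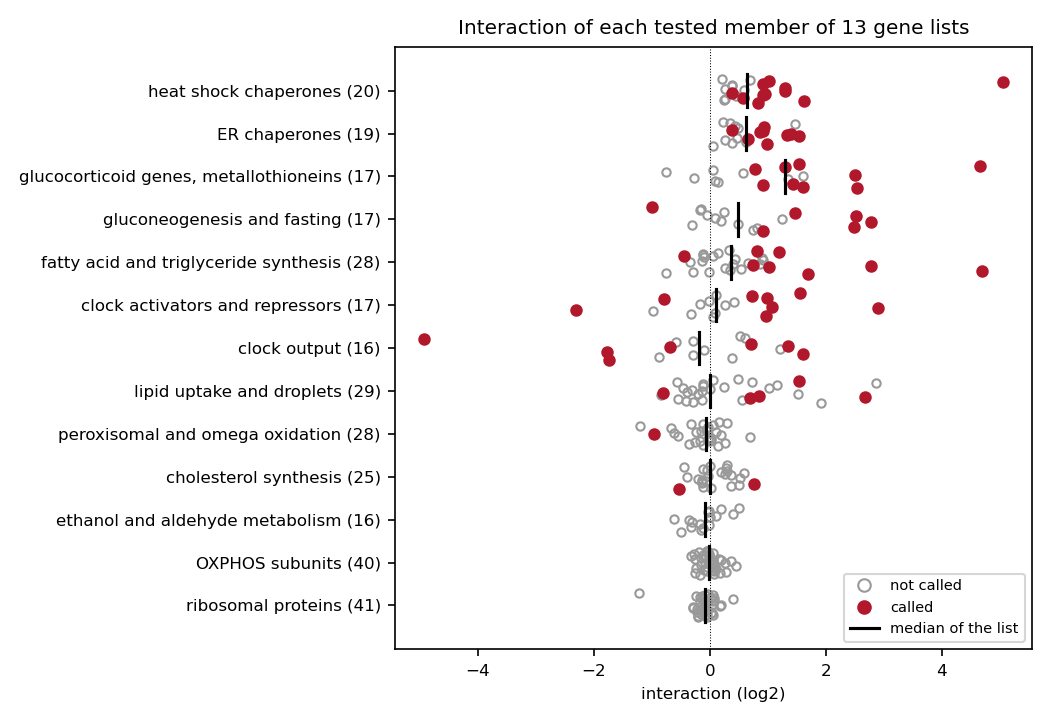
Interaction (log2) of each tested member of 13 gene lists, with the number tested in brackets. Filled points were called, open points were not, and the black line is the list's median. All chaperones and 15 of 17 glucocorticoid-responsive genes lie to the right of 0, and clock genes spread to both sides. The medians of peroxisomal, ethanol, OXPHOS and ribosomal genes lie near 0 (-0.06, -0.08, -0.01 and -0.08). In that order 11 of 28, 4 of 16, 18 of 40 and 11 of 41 members lie above 0, against 5495 of all 10697 tested genes.

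In the next 7 lists the share called was between 0 and 5.88%, against 6.41% of all tested genes. Among 40 OXPHOS subunits and 41 ribosomal proteins none was called by edgeR, DESeq2 or limma, and 6 and 2 had an unadjusted p below 0.05. At that level 1310 of all 10697 tested genes were higher and 1193 lower. Of 26 acute phase genes none was called by edgeR or limma, 1 was higher in DESeq2, and 3 were higher at an unadjusted p below 0.05. An interferon gene of 27 was called (Irf1, -0.56; call lost in 8 of the fits that omit 1 library, adjusted p 0.0508 to 0.0625), as were 1 proteasome gene of 33 (Psmc6, 0.55; call lost in 16 of the fits that omit 1 library, adjusted p 0.055 to 0.103), 1 NRF2 or glutathione gene of 36 (Gss, -0.83) and 1 cell cycle gene of 17 (Cdc20, -3.60). Of these Cdc20 alone was also called without the 3 libraries. Male-biased liver genes had a median interaction of -0.62, against 0.01 for all genes, and 1 of 24 was above 0, and 2 were called lower (8.33%, against 3.09%), Cyp4a12b and Cyp2u1. Cyp2u1 spanned 4.86 to 6.87 FPKM (median 6.07) with vehicle and 8.24 to 18.6 (median 11.5) with ethanol. The ranges for Cyp2u1 were 2.44 to 4.62 (median 3.86) with DEHP and 2.12 to 4.7 (median 3.67) with both. The ethanol group was the high one for this P450. Its interaction was -1.11 ± 0.26 (adjusted p = 0.0114).

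Lists of markers of other cell types differed in their medians, with few calls. Of the 14 endothelial markers 1, Bmp2 (1.05), was called with all libraries (7.14% higher, against 3.32%) and none without the 3. The call of Bmp2 was lost without vehicle library 1 or 3 or combination library 6 or DEHP library 6 or ethanol library 5 (adjusted p 0.051 to 0.055). Of the 14, 13 were above 0, the median was 0.48 (0.31 without the 3), and summed levels had medians of 154 FPKM with vehicle, 112 with ethanol, 127 with DEHP and 128 with both. Stellate cell and fibroblast markers had 3 of 12 called higher (25%, against 3.32%), with a median of 0.58, or 0.14 without the 3. Des (7.08) was one, at 119 and 101 FPKM in the 2 libraries with muscle transcripts and at most 2.03 FPKM in the others of their groups, and it was not called without them (adjusted p = 0.837). Dcn (0.76) and Hgf (0.92) were called both ways. No marker of 12 of Kupffer cells and macrophages was called by edgeR, DESeq2 or limma, or had an unadjusted p below 0.05. Of 5 erythroid markers 1, Alas2 (-0.78), was called lower (20.0%, against 3.09%), and not without the 3 libraries (adjusted p = 0.104). The call of Alas2 was lost in 19 of the fits that omit 1 library (adjusted p 0.0521 to 0.0846). No neutrophil marker of 3 (median -1.44) and no adipocyte marker of 4 (median 1.09, and -0.04 without the 3) was called by edgeR, DESeq2 or limma, while 0 and 2 had an unadjusted p below 0.05. The part of cell composition in the results above was not tested. The 3 skeletal muscle genes that passed the filter, Mylpf, Tpm2 and Eno3, were called with all libraries (11.55, 7.81 and 6.09) and not without the 3 (-0.59, 0.09 and 0.02). Fabp3, a muscle fatty acid-binding protein outside that list, was at 12.78 with all libraries and at 2.84 without the 3, where it was not called (adjusted p = 0.222).

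**Figure D5:**
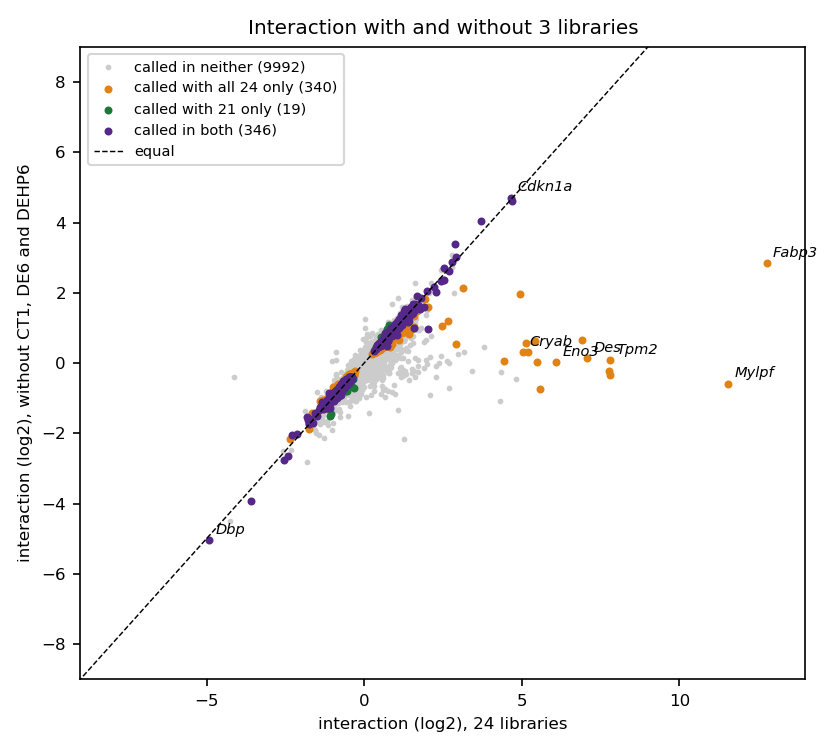
Interaction (log2) of each tested gene with all 24 libraries (x axis) and with 21, without CT1, DE6 and DEHP6 (y axis). Purple genes were called in both (346), orange genes with all 24 alone (340), green genes with 21 alone (19) and grey genes in neither (9992). Most genes follow the dashed line of equality, and Fabp3, Mylpf, Tpm2, Des, Eno3 and Cryab leave it toward smaller values once the 3 libraries are left out.

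Additivity depends on the scale, so signs were compared with those on linear FPKM. There 684 of the 686 called genes had the same sign. Limma on untransformed FPKM called 440 genes, 388 of them shared with the same sign, which is fewer than on the log2 scale. Several genes described above were called in every other fit that gave them an adjusted p and not in that one. They were Ddit4 (adjusted p = 0.0869), Zbtb16 (0.052), Igfbp1 (0.067), Lipe (0.0979), Thrsp (0.0869) and Acly (0.127). The others were Chrna4 (0.122), Inhbe (0.1), Cyp4a12b (0.247), Hspa4l (0.0514) and Syvn1 (0.0786).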

How the data were processed

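For every library the authors deposited an expected count and an FPKM value per gene. Per the file headers, expected counts are estimated reads per gene, not normalised; 94.5% to 95.3% were whole numbers, and they were rounded here. The deposited FPKM values, per the file headers and the values, are those counts scaled by the library total and by a gene length that the tables give per library and that differs between libraries in 6206 tested genes (58%). Group medians of that length differ by over 1.25-fold in 74 tested genes (0.692%), 5 of them called. The submitters' processing notes name Cuffdiff and the builds mm10 and GRCm38. The aligner, the counter, its use of strand and its treatment of shared reads were not given in the sources used here. Each library's group and number come from its title. A gene missing from a table was set to 0, and mitochondrially encoded genes were not analysed here.

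Counts of the 10697 genes with at least 1 FPKM in at least 6 libraries were fitted with TMM factors in edgeR 4.0.16, under R 4.3.3, with 1 coefficient per group and 20 residual degrees of freedom. The quasi-likelihood F test was adjusted by Benjamini and Hochberg over every tested gene and called below 0.05. Values after ± are SE for an interaction, taken as the unshrunken estimate over the root of F, and SD for FPKM. The 95% intervals use the same SE and can be off centre, since the printed estimate is slightly shrunken. The procedure was tested on simulated counts. Limma 3.58.1, DESeq2 1.42.0 and other settings were alternatives. The additive expectation in FPKM is the product of the mean levels with each agent alone over the mean with vehicle.

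The members, the 32 pathway and 11 marker lists and the tests were chosen with earlier results of these data known. Named by rule were the 12 highest and 12 lowest interactions called with and without the 3 libraries at a mean of at least 5 FPKM in some group, up to 4 called members of each list with enough calls, up to 4 genes of each shape, and 22 fixed genes, of which 21 were tested; the text picks among these. Other genes, such as remaining list members given by their interaction and Fabp3, were added after their values were seen. RefSeq placed 17491 of 17537 identifiers in GRCm38.p6 and gave 8604 tested genes a promoter window; 10 motifs were searched. Genes of low FPKM rest on few reads.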

Additional observations from a re-analysis of the deposited data

Results flagged for a closer look

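The interaction compares the ethanol effect without DEHP and with it, and the 2 effects differed by the test itself in 686 genes. Among the 452 sets of 6 libraries made by the named genes and the 4 groups, 48 held a library whose gap to the nearest other, on log2(FPKM + 1), exceeded, as a share of the range, Dixon's 95% critical value. Chance gives about 1 in 20, or 23.

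Vehicle library 1 stood apart from its group in Cryab at 139 FPKM (the other 5 libraries 3.5 to 4.83), Des at 119 (1.06 to 1.81), Eno3 at 140 (1.59 to 3.72), Fabp3 at 219.7 (0 to 1.35), Mylpf at 518 (0.2 to 1.27), Pdk4 at 34.7 (2.28 to 3.74) and Tpm2 at 176 (1.46 to 2.28). Combination library 6 was apart from the rest of its group in Calr at 466 FPKM (the other 5 libraries 575 to 632), Cryab at 119.9 (2.77 to 4.81), Des at 101 (1.19 to 2.03), Eno3 at 86.9 (1.66 to 2.72), Fabp3 at 279 (0.53 to 5.23), Mylpf at 363 (0.61 to 1.6), Plin4 at 4.09 (0.25 to 0.57) and Tpm2 at 141 (1.83 to 6.12). Des, Eno3, Mylpf and Tpm2 are muscle genes.

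Vehicle library 2 differed from the other replicates in Alas2 at 38.9 FPKM (the other 5 libraries 50.1 to 57.04), Hgf at 1.17 (1.82 to 2.18) and Pitx3 at 5.66 (13.9 to 20.9). Vehicle library 3 stood apart from its group in Inhbe at 7.92 FPKM (the other 5 libraries 11.4 to 14.1) and Nr1h4 at 34.4 (42.7 to 46.7). Vehicle library 5 was apart from the rest of its group in Cry1 at 11.3 FPKM (the other 5 libraries 7.42 to 8.66). Vehicle library 6 differed from the other replicates in Npas2 at 2.8 FPKM (the other 5 libraries 3.67 to 4.08). Combination library 1 stood apart from its group in Igfals at 31.1 FPKM (the other 5 libraries 39.8 to 46.1). Combination library 2 was apart from the rest of its group in Mt1 at 33.2 FPKM (the other 5 libraries 104 to 135), Mt2 at 11.7 (40.5 to 66.1) and Plin5 at 37.3 (31.2 to 32.9). Combination library 3 differed from the other replicates in Dbp at 6.88 FPKM (the other 5 libraries 1.21 to 2.22), Npas2 at 1.05 (2 to 2.64), Ppard at 3.55 (10.3 to 12.4) and Tef at 14.7 (8.31 to 9.61). Combination library 4 stood apart from its group in Cyp2b10 at 6.42 FPKM (the other 5 libraries 24.7 to 31.9) and Serpina12 at 0.77 (0 to 0.08). Combination library 5 was apart from the rest of its group in Per2 at 1.41 FPKM (the other 5 libraries 0.6 to 0.81). DEHP library 1 differed from the other replicates in Mt1 at 343 FPKM (the other 5 libraries 109.6 to 144) and Nr1d1 at 3.4 (13.1 to 24.2). DEHP library 2 stood apart from its group in Cry2 at 7.3 FPKM (the other 5 libraries 5.28 to 5.97). DEHP library 4 was apart from the rest of its group in Cdkn1a at 20.7 FPKM (the other 5 libraries 31.4 to 36.8). DEHP library 5 differed from the other replicates in Serpina12 at 0.93 FPKM (the other 5 libraries 0 to 0.16), Tef at 6.39 (8.56 to 10.02) and Xbp1 at 98.7 (52.5 to 63.1). Ethanol library 1 stood apart from its group in Hspa4l at 2.12 FPKM (the other 5 libraries 3.15 to 3.55). Ethanol library 3 was apart from the rest of its group in Nr1h4 at 49.3 FPKM (the other 5 libraries 56.6 to 59.6). Ethanol library 4 differed from the other replicates in Hsph1 at 12.2 FPKM (the other 5 libraries 7.62 to 8.7), Nr1d1 at 42.9 (55.9 to 64.7), Sphk2 at 22.5 (27.5 to 30.9), Tm7sf2 at 125 (161 to 185) and Zbtb16 at 4.43 (0.47 to 1.08). Ethanol library 6 stood apart from its group in Plin5 at 22.01 FPKM (the other 5 libraries 26.9 to 29.5).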

How the results depend on the processing

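Of 96 called genes that the text names, 57 were called with the same sign in each of the 39 alternatives that gave them an adjusted p. A further 11 were called in all of those but limma on linear FPKM. Fits in which a gene was filtered out or had no adjusted p were passed over for it, such as the minimum of 5 FPKM for Pnpla3. Reversal was seen in 1, the muscle gene Mylpf, at -0.59 (adjusted p = 0.709) without vehicle library 1, combination library 6 and DEHP library 6. Of 17 named genes not called, 9 changed sign in some alternative, none with an adjusted p below 0.05 there, and Cyp2e1 was called in DESeq2 (-0.51, adjusted p = 0.0291), without vehicle library 4 (-0.61, 0.016) and without ethanol library 4 (-0.55, 0.0454). The counts with TMM, 355 higher and 331 lower, were 347 and 327 with DESeq2 size factors, 344 and 329 with the robust fit, 308 and 286 with a minimum of 5 FPKM, 406 and 282 without a filter, 358 and 402 after removal of a trend with gene length, and 480 and 478 in DESeq2. A fit with the gene length of each library as an offset, added after seeing the data, gave 359 and 326, with 653 genes called in both fits, and ended the calls of Thra (-0.43, adjusted p = 0.103) and Rhbg (-0.95, 0.0506). Genes called lower were fewer without normalisation factors (203), in limma on log2(FPKM + 1) (215), on log2(FPKM + 0.1) (211), on log2(TPM + 1) (120) and on linear FPKM (196 of 440), where 4 ER chaperones were called. The causes were not tested. Without the 3 libraries, 365 genes were called, 196 higher and 169 lower, with fewer samples in the fit. Leaving out any 1 library gave 459 to 835 calls, 248 to 440 higher and 208 to 408 lower, the fewest lower calls without DEHP library 6 (208) or 2 (209). The same omissions gave 9 to 12 heat shock chaperones, 5 to 12 ER chaperones, 8 to 9 glucocorticoid-responsive genes and 8 to 9 clock genes. The odd group was measured once, on all 24 libraries, and not again under each alternative. Among the genes called in each alternative, the share with ethanol as that group ranged from 54.1% to 67.4%.

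A replicate block, which treats equal numbers as pairs, gave 311 higher and 288 lower calls, 599 in all, of which 550 were shared with the fit without it. The labels say nothing of pairing, and same-numbered libraries of different groups had correlated deviations of only -0.206 to 0.212, over 0.1 in 7 of 36 pairs. Of the 24 libraries 3 correlated best with their own number, so the numbers give no pairing. Under the block 11 named genes lost their call: Acacb (adjusted p = 0.0537), Alas2 (0.0727), Edem1 (0.0522), Hspa4 (0.0534), Pdk4 (0.0773), Por (0.0612), Rhbg (0.0648) and the muscle genes Cryab (0.126), Des (0.137), Eno3 (0.165) and Tpm2 (0.158).

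Depth limits low genes. Pnpla3 was at most 2.51 FPKM in every library, and its interaction of 4.70 was 1.36 in limma on log2(FPKM + 1), where the pseudocount holds the change of low genes down.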
